A study of Homo sapiens with 12 samples.

Results

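The OAS family of human oligoadenylate synthetase genes was followed through RNA sequencing of U251-APP cells. Its members were taken as the rows of the deposited expression table whose gene symbol is OAS1, OAS2, OAS3 or OASL. Of these 4 genes, 3 have a row (OAS1, OAS3 and OASL) among the 11178 genes of the table, and OAS2 is not analysed here. U251 is a human glioblastoma line of astrocytic origin, and the U251-APP line stably expresses a mutant amyloid precursor protein (K670N/M671L), which cells of all groups carry. The CTCF-A KO and CTCF-B KO groups lack 1 or the other of 2 binding sites of the chromatin insulator protein CTCF, each removed with Cas9 and a guide RNA on either side of the site, after which single cells were grown into clones. The third group is wild type (WT), for which the labels also give Cas9 editing as the treatment. Each group has 4 libraries. No position is given for either site, and nothing in the labels tells whether the 4 libraries of a group are separate clones, separate cultures or repeats of 1 culture. All p-values here therefore reflect the spread among libraries, which may be technical. The labels do not say that WT cells went through single-cell cloning. The comparisons ask what the loss of each site is accompanied by in OAS expression.

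OAS enzymes are sensors of double-stranded RNA that cells make in small amounts and induce strongly with interferon. On binding double-stranded RNA, OAS1, OAS2 and OAS3 join ATP into 2′-5′-linked oligoadenylates, called 2-5A, which act as a second messenger of the antiviral response. OASL shares their fold but has lost the synthetase activity. It carries ubiquitin-like domains at its end and is known to enhance signalling by the RNA sensor RIG-I. In astrocytes and glioma cells, as in most cell types, these genes respond to type I interferon through factors that include STAT2 and IRF9.

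OAS1 (ENSG00000089127) lies on the plus strand of chromosome 12 at 112906777 to 112933222, and OAS3 (ENSG00000111331) on the same strand at 112938352 to 112973249, starting 5129 bases after the end of OAS1 (GENCODE 29, GRCh38). OASL (ENSG00000135114) lies apart on the minus strand at 121019111 to 121039242, 8.01 Mb beyond the end of OAS2. An antisense gene, AC004551.1, which has no row in the table, overlaps both OAS1 and OAS3. No strand setting of the counting is given, so its reads cannot be told apart from theirs, and reads shared between OAS paralogs may have been split. The 250 bases before the RefSeq start of OAS1 and OAS3 are shown because these neighbouring genes were both higher in CTCF-A KO and because each stretch holds GAAA repeats of the kind that interferon-activated factors bind. Both come from the RefSeq promoter table (GRCh38.p14, plus strand, chr12:112906712-112906961 for OAS1 and chr12:112938224-112938473 for OAS3), in which 2 of the 4 family genes were matched. The RefSeq starts differ from those of GENCODE 29, so that the last 185 bases of the OAS1 stretch and the last 122 of the OAS3 stretch lie inside the genes as GENCODE places them. Capitals mark matches to GAAANGAAA or GAAANNGAAA on either strand.
OAS1 promoter: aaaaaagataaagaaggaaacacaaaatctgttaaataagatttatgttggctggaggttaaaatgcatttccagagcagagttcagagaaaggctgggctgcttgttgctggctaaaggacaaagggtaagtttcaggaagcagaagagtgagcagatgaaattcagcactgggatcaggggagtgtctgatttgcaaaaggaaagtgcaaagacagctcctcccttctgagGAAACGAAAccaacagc
OAS3 promoter: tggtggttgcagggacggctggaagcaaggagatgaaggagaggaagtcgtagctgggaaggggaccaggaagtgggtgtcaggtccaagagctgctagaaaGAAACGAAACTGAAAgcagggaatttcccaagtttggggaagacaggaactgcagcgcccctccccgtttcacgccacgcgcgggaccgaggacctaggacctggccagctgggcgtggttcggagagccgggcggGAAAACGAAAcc

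The OAS1 stretch holds 1 match, GAAACGAAA, which spans bases -17 to -9 relative to the RefSeq start. The OAS3 stretch holds 3 matches, of which GAAACGAAA (-148 to -140) and GAAACTGAAA (-143 to -134) overlap each other, and GAAAACGAAA (-12 to -3) stands next to the start. All lie on the plus strand. Among 35116 promoters of the same length, 2.69% hold GAAANGAAA, 3.02% hold GAAANNGAAA and 0.231% hold both, as that of OAS3 does. These matches are letters in a window and do not show that a factor binds there.

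All 3 measured OAS genes rose in CTCF-A KO, and 2 of them, OAS1 and OASL, rose in CTCF-B KO (limma, Benjamini-Hochberg adjusted p under 0.05 over 11128 genes). OASL rose in both knockouts, whose difference missed the threshold, whereas OAS1 rose more in CTCF-A KO than in CTCF-B KO, and OAS3 rose in CTCF-A KO and missed the threshold in CTCF-B KO. So many genes moved in these cells that a call by itself sets no gene apart: 62.9% of all genes tested differed between CTCF-A KO and WT (31.8% were higher), and 39.4% differed between CTCF-B KO and WT (18.9% were higher). Being called and at least 2-fold higher was rarer, at 0.944% of genes in CTCF-A KO cells and 0.377% in CTCF-B KO. All 3 OAS genes were past 2-fold in CTCF-A KO, and OAS1 and OASL were in CTCF-B KO. Both comparisons use the same WT libraries. In bulk RNA, more cells with a transcript and more transcript per cell cannot be told apart.

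**Figure D1:**
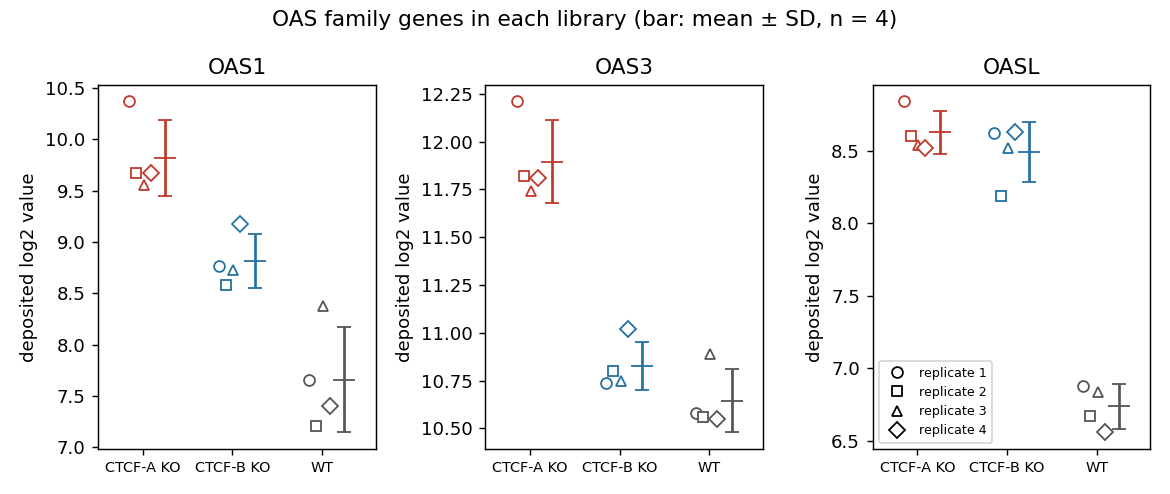
Deposited log2 values of OAS1, OAS3 and OASL in the 12 libraries, with CTCF-A KO, CTCF-B KO and WT from left to right. Marker shapes give the replicate number and the bars give mean ± SD (n = 4). OAS1 stands in 3 separate steps, OAS3 is apart in CTCF-A KO and overlaps between CTCF-B KO and WT, and OASL is raised to a similar height in both knockouts.

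OAS1, the smallest of the active synthetases, had log2 values of 10.37, 9.67, 9.56 and 9.67 in CTCF-A KO replicates 1 to 4, 8.77, 8.58, 8.73 and 9.18 in CTCF-B KO, and 7.66, 7.21, 8.38 and 7.40 in WT. The 3 groups did not overlap, although the lowest CTCF-B KO library stood 0.20 above the highest WT library. No overlap in this direction was seen for 25.7% of all genes between CTCF-A KO and WT and for 26.2% between CTCF-B KO and WT. Folds here are 2 raised to the difference in log2 value. How the authors made the log2 values is not recorded, and after a variance-stabilising or regularised log transformation such folds would not be ratios of linear counts. OAS1 was 4.47-fold higher in CTCF-A KO than in WT (log2 2.16 ± 0.24, SE, n = 4 per group, limma adjusted p = 7.62e-06). It was 2.23-fold higher in CTCF-B KO than in WT (log2 1.16 ± 0.24, limma adjusted p = 0.0018). Ordered by size, its rise was number 3 of 11128 genes in CTCF-A KO and number 24 in CTCF-B KO. CTCF-A KO exceeded CTCF-B KO by 2.00-fold (log2 1.00 ± 0.24, limma adjusted p = 0.00235).

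OAS3, the largest of the synthetases, had log2 values of 12.21, 11.82, 11.74 and 11.81 in CTCF-A KO cells, 10.74, 10.80, 10.75 and 11.02 in CTCF-B KO, and 10.58, 10.56, 10.89 and 10.55 in WT. All CTCF-A KO libraries lay above the other 8, and CTCF-B KO overlapped WT through WT replicate 3. Such an order without overlap was seen for 28.3% of all genes between CTCF-A KO and CTCF-B KO. OAS3 was 2.38-fold higher in CTCF-A KO than in WT (log2 1.25 ± 0.11, SE, limma adjusted p = 8.60e-07). In CTCF-B KO the difference from WT was 0.18 ± 0.11 (limma adjusted p = 0.2), with a 95% interval of -0.049 to 0.41, which includes rises of up to that upper bound. With libraries weighted by their quality, it passed (log2 0.20, limma adjusted p = 0.0136). The difference between the knockouts was itself past the threshold, with CTCF-A KO 2.10-fold above CTCF-B KO (log2 1.07 ± 0.11, limma adjusted p = 2.20e-06).

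OASL, the member without synthetase activity, had log2 values of 8.84, 8.60, 8.54 and 8.52 in CTCF-A KO cells, 8.62, 8.19, 8.52 and 8.63 in CTCF-B KO, and 6.88, 6.67, 6.84 and 6.56 in WT. The knockouts overlapped each other and both stood clear of WT, the lowest knockout library being 1.30 above the highest WT library. OASL was 3.70-fold higher in CTCF-A KO than in WT (log2 1.89 ± 0.11, SE, limma adjusted p = 2.71e-08) and 3.37-fold higher in CTCF-B KO than in WT (log2 1.75 ± 0.11, limma adjusted p = 6.13e-08). These rises were number 9 and number 7 of 11128 genes by size. Between CTCF-A KO and CTCF-B KO the difference was 0.14 ± 0.11 (limma adjusted p = 0.282), with a 95% interval of -0.099 to 0.37. In the comparison of the knockouts, 2 of the 3 OAS genes, OAS1 and OAS3, were thus higher in CTCF-A KO. Of all genes, 66.0% differed in that comparison, 33.4% being higher and 32.6% lower in CTCF-A KO. Those called and at least 2-fold higher made up 2.03%, with both OAS genes among them. Both lay near that bound. Across 13 alternative runs OAS1 was between 0.77 and 1.07 (log2) and OAS3 between 0.88 and 1.14, under 2-fold in some runs.

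**Figure D2:**
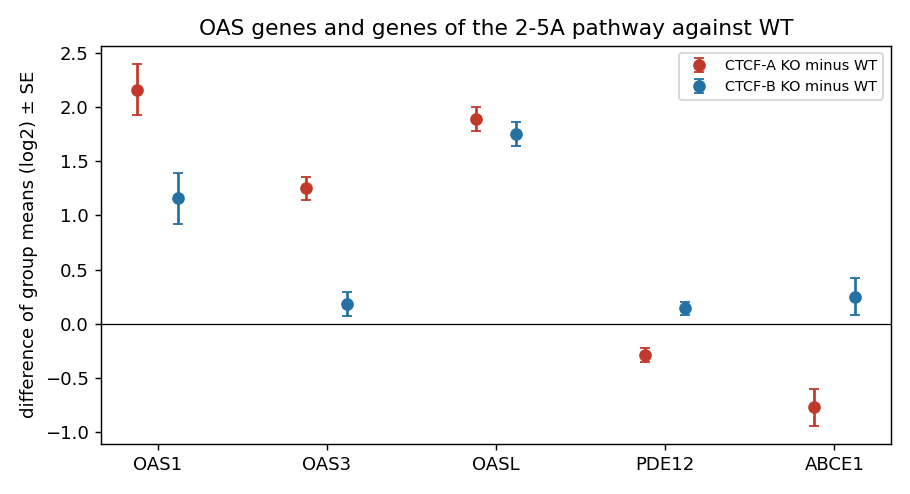
Differences of group means from WT on the log2 scale, with SE from the linear model (n = 4 per group), for the OAS genes and for 2 genes of the 2-5A pathway list. CTCF-A KO minus WT is drawn left of CTCF-B KO minus WT. The OAS genes lie between 0.18 and 2.16, while PDE12 and ABCE1 lie between -0.77 and 0.25.

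The members changed relative to each other as well. Within each library the log2 value of one gene was subtracted from that of another, and these differences were compared between groups by exact two-sided permutation over the 70 splits of 4 against 4 libraries, where the smallest p possible is 0.0286. The 9 comparisons were chosen after the data had been seen, and p-values were adjusted over them. A shift of a library that is equal in both genes cancels in such a difference. One that moves the genes by unlike amounts does not.

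OAS1 gained on OAS3 in both knockouts. The OAS1 minus OAS3 difference averaged -2.08 ± 0.16 in CTCF-A KO cells, -2.01 ± 0.16 in CTCF-B KO and -2.98 ± 0.36 in WT (log2, SD, n = 4). Each knockout stood clear of WT (changes of 0.91 and 0.97, exact permutation p = 0.0286 for each, adjusted p = 0.0429). The knockouts overlapped each other (change of -0.066, exact permutation p = 0.6).

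OASL gained on OAS3 more in CTCF-B KO than in CTCF-A KO. The OASL minus OAS3 difference averaged -3.27 ± 0.08 in CTCF-A KO cells, -2.34 ± 0.21 in CTCF-B KO and -3.91 ± 0.16 in WT. All 3 groups were apart (exact permutation p = 0.0286, adjusted p = 0.0429 for each pair of groups). The OASL minus OAS1 difference was -1.19 ± 0.23 in CTCF-A KO cells and -0.33 ± 0.19 in CTCF-B KO, which did not overlap (exact permutation p = 0.0286, adjusted p = 0.0429). WT, at -0.92 ± 0.43, overlapped both of them (adjusted p = 0.354 against CTCF-A KO cells and 0.0735 against CTCF-B KO).

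**Figure D3:**
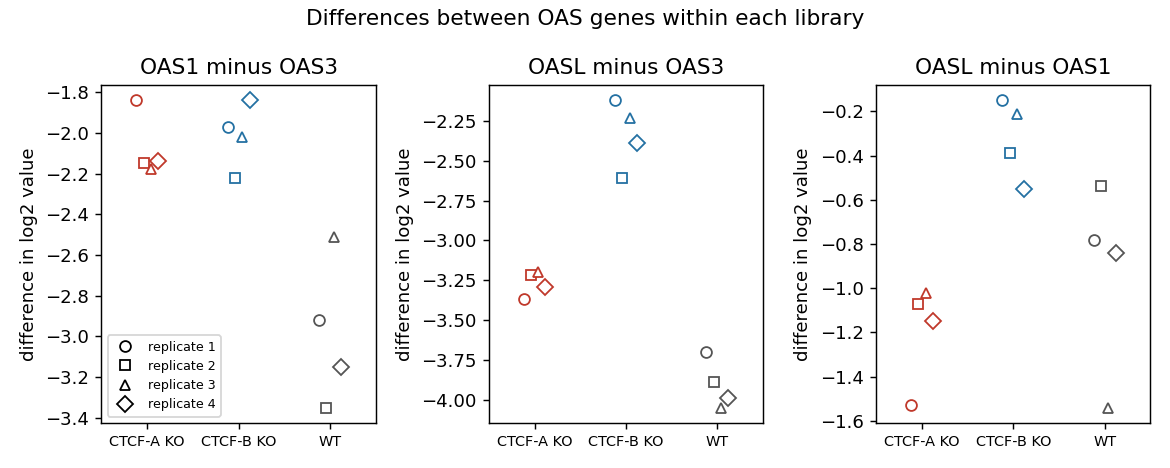
Differences in log2 value between pairs of OAS genes within each library, for CTCF-A KO, CTCF-B KO and WT from left to right; marker shapes give the replicate number. OAS1 minus OAS3 is similar in the knockouts and lower in WT, and OASL minus OAS3 separates all 3 groups.

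Levels of different genes can be set side by side only roughly, once exon length is taken into account. The linear value (2 raised to the deposited log2 value) was divided by the length of the gene's merged exons, 4947 bases for OAS1, 8251 for OAS3 and 3517 for OASL. These per-kb levels hold only if the deposited values are plain log2 of normalized counts, which is not recorded. They also depend on which isoforms the cells express, since merged exons can be longer than the expressed transcript, and this was not examined. OAS3 was the most abundant member in each group, at 466 ± 74.1 per kb in CTCF-A KO cells, 221 ± 20.3 in CTCF-B KO and 195 ± 23.6 in WT (SD, n = 4). OAS1 had 188 ± 53.8 per kb in CTCF-A KO cells, 92.3 ± 17.6 in CTCF-B KO and 43.02 ± 16.81 in WT. OASL had 113 ± 11.9 per kb in CTCF-A KO cells, 103 ± 13.9 in CTCF-B KO and 30.5 ± 3.20 in WT. OAS1 and OASL stood apart in CTCF-A KO, where the lowest OAS1 library had 153 per kb and the highest OASL library 130, but their ranges overlapped in CTCF-B KO and in WT. In WT, 77.0% of all genes kept had a lower mean log2 value than OAS3, 21.7% a lower one than OAS1 and 12.2% a lower one than OASL.

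OAS1 was among the most variable genes in WT. Its SD in WT was 0.51 on the log2 scale, a spread matched or exceeded by 0.108% of all genes, and its highest WT library was 2.25-fold above its lowest. In CTCF-B KO its SD was 0.26 (matched or exceeded by 1.54% of genes) and in CTCF-A KO 0.37 (6.95%). OAS3 varied less, with SDs of 0.22 in CTCF-A KO cells, 0.13 in CTCF-B KO and 0.17 in WT. OASL had SDs of 0.15 in CTCF-A KO cells, 0.21 in CTCF-B KO and 0.15 in WT. The median SD over all genes was 0.14 in CTCF-A KO cells, 0.058 in CTCF-B KO and 0.060 in WT, so CTCF-A KO libraries differed more from each other across the whole table.

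One library in each group was high for both OAS1 and OAS3: CTCF-A KO replicate 1, CTCF-B KO replicate 4 and WT replicate 3. WT replicate 3 stood 0.72 above the WT mean in OAS1 and 0.25 in OAS3. CTCF-B KO replicate 4 stood 0.37 and 0.19 above its group mean, and CTCF-A KO replicate 1 stood 0.55 and 0.32 above its own. In OASL the same libraries stood 0.21 (CTCF-A KO replicate 1), 0.14 (CTCF-B KO replicate 4) and 0.11 (WT replicate 3) above their group means, and WT replicate 1 was higher still, at 0.15.

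The median deviation of 24 other interferon-induced genes from their own group means was 0.16 in CTCF-A KO replicate 1, 0.18 in CTCF-A KO replicate 4, 0.20 in CTCF-B KO replicate 4 and 0.16 in WT replicate 3. Of the 24, 21 had their highest CTCF-B KO value in replicate 4 and 19 their highest WT value in replicate 3, against 30.4% and 31.7% of all genes. In CTCF-A KO, 11 of the 24 were highest in replicate 1, where 39.5% of all genes were. Replicate 4 split the list, with 12 of the 24 highest there, where 34.0% of all genes were, and 10 lowest. In that library OAS1, OAS3 and OASL lay 0.15, 0.08 and 0.10 below their group means. The part of these libraries in the differences between groups can be read from leaving them out. Without WT replicate 3, OAS1 exceeded WT by 2.40 in CTCF-A KO cells and by 1.40 in CTCF-B KO. Without CTCF-A KO replicate 1 its rise in CTCF-A KO was 1.97, and without CTCF-B KO replicate 4 its rise in CTCF-B KO was 1.03.

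**Figure D4:**
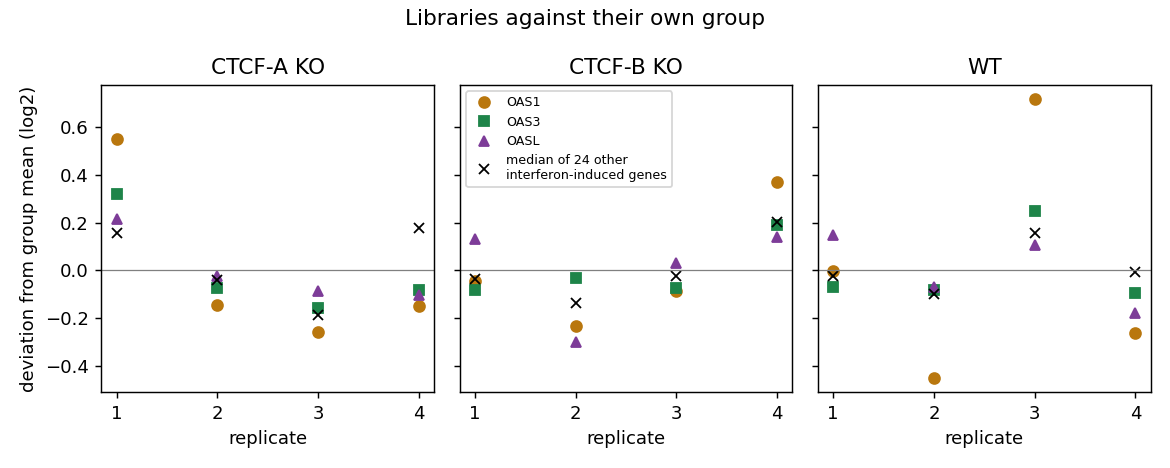
Deviation of each library from its own group mean on the log2 scale, for OAS1, OAS3, OASL and the median of 24 other interferon-induced genes, with 1 panel each for CTCF-A KO, CTCF-B KO and WT. CTCF-A KO replicate 1, CTCF-B KO replicate 4 and WT replicate 3 are raised in all 4 measures, and OAS1 has the widest range, from -0.45 to 0.72 in WT.

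The 2 genes reported here from the list for the 2-5A pathway were not called as rising in either knockout in the values as deposited. PDE12, a phosphodiesterase that breaks down 2-5A, had log2 values of 9.93, 10.05, 10.05 and 10.28 in CTCF-A KO cells, 10.54, 10.55, 10.47 and 10.46 in CTCF-B KO, and 10.35, 10.32, 10.41 and 10.38 in WT. All 4 CTCF-A KO libraries lay below WT and all 4 CTCF-B KO libraries above it. All CTCF-B KO libraries stood above WT for 26.2% of all genes, and the share with CTCF-A KO below WT is not given here. PDE12 was at -0.29 ± 0.06 in CTCF-A KO against WT (limma adjusted p = 0.0017), but at 0.096 (0.189) once each library's trend with GC content and transcript length was removed. In CTCF-B KO it was at 0.14 ± 0.06 (0.094, or 0.036 with that trend removed).

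ABCE1, a ribosome recycling factor on the same list, fell in CTCF-A KO by 0.77 ± 0.17 (limma adjusted p = 0.00188). Its CTCF-A KO log2 values were 8.95, 9.48, 9.11 and 10.00, against 10.04, 10.09, 10.30 and 10.19 in WT. Replicate 4 lay just below the lowest WT library, and the other CTCF-A KO libraries lay further below. With replicate 4 as the one CTCF-A KO library the difference was -0.15. In that setting the spread comes from the other groups, and the lone library is assumed to vary like them. With the GC and length trend removed it was -0.38 (6.00e-04). In CTCF-B KO, ABCE1 was at 0.25 ± 0.17 (limma adjusted p = 0.273, or 0.0126 with the trend removed). Its log2 values there were 10.31, 10.33, 10.47 and 10.50, all above WT, an order seen for 26.2% of all genes. The model uses 1 estimate of spread for the 3 groups. The SD of ABCE1 was 0.47 in CTCF-A KO cells, 0.097 in CTCF-B KO and 0.11 in WT, which widens the SE for CTCF-B KO. Both genes were thus lower in CTCF-A KO, where 31.1% of all genes fell, and neither passed in CTCF-B KO, where 20.6% of all genes fell. With the trend removed, ABCE1 fell in CTCF-A KO and PDE12 did not pass, where 28.0% of all genes fell, and both rose in CTCF-B KO, where 28.7% of all genes rose.

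Sensors of double-stranded RNA that act beside the OAS proteins rose in part. Of 8 measured genes of that list, 5 rose and 0 fell in the CTCF-A KO cells, with a median of 0.31 against 0.0049 over all genes. In CTCF-B KO 5 rose and 0 fell, with a median of 0.25 against 0.0016. The shares of all genes that rose and fell were 31.8% and 31.1% in CTCF-A KO cells, and 18.9% and 20.6% in CTCF-B KO. IFIH1, which encodes the sensor MDA5, rose by 0.95 ± 0.17 in CTCF-A KO cells and by 0.84 ± 0.17 in CTCF-B KO. DDX58, which encodes RIG-I, rose by 0.75 ± 0.20 in CTCF-A KO cells and 0.95 ± 0.20 in CTCF-B KO, and TRIM25, a ubiquitin ligase that acts on RIG-I, by 0.82 ± 0.08 in CTCF-A KO cells and 0.68 ± 0.08 in CTCF-B KO. For these 3 genes the difference between the knockouts missed the threshold (limma adjusted p = 0.581, 0.384 and 0.129). ADAR, which edits double-stranded RNA, rose in CTCF-A KO (0.34 ± 0.05) and was at -0.07 ± 0.05 in CTCF-B KO, a difference that passed (limma adjusted p = 7.82e-06). TICAM1, the adaptor of the receptor TLR3, rose in both (0.28 ± 0.06 in CTCF-A KO cells and 0.31 ± 0.06 in CTCF-B KO). In CTCF-A KO its call ended with the trend removed (0.10, limma adjusted p = 0.0625), and with replicate 4 as the one CTCF-A KO library the difference was 0.17.

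Of 7 measured genes for DNA sensing and interferon induction, 5 rose and 0 fell in CTCF-A KO cells (median 0.45). In CTCF-B KO 2 rose and 1 fell (median 0.21). Beside these stand 31.8% of all genes rising and 31.1% falling in CTCF-A KO cells, and 18.9% rising and 20.6% falling in CTCF-B KO. SAMHD1, a nucleotide hydrolase that restricts viruses, rose by 0.81 ± 0.07 in CTCF-A KO. In CTCF-B KO it rose by 0.21 ± 0.07, a call lost when any of 6 single libraries was left out (CTCF-B KO replicates 1, 3 and 4 and WT replicates 1, 2 and 4, limma adjusted p 0.0595 to 0.101). IRF1, an interferon-induced transcription factor, rose by 0.82 ± 0.08 in CTCF-A KO cells and by 0.45 ± 0.08 in CTCF-B KO. IRF3 and the kinase IKBKE, which act upstream of interferon genes, rose in CTCF-A KO (0.52 ± 0.07 and 0.45 ± 0.07). STING1, the adaptor of the DNA sensor cGAS, fell in CTCF-B KO (-0.39 ± 0.07) and rose in CTCF-A KO (0.23 ± 0.07, limma adjusted p = 0.0126, but 0.069 and 0.19 with the trend removed). The knockouts differed by 0.62 in STING1 (limma adjusted p = 7.49e-06). No row was found for any of 9 interferon genes (types I, II and III), so the level of interferon mRNA is not analysed here.

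Of 12 measured genes of interferon receptors and signalling, 5 rose and 3 fell in CTCF-A KO cells (median 0.096) and 2 rose and 1 fell in CTCF-B KO (median 0.021). Over all genes, 31.8% rose and 31.1% fell in the CTCF-A KO cells, and 18.9% rose and 20.6% fell in CTCF-B KO. With the trend removed, the counts of the list were 7 and 4 in CTCF-A KO, where 33.7% of all genes rose and 28.0% fell, and 6 and 3 in CTCF-B KO, where 28.7% rose and 24.3% fell. USP18, an interferon-induced brake on the receptor, rose by 0.86 ± 0.12 in CTCF-A KO, and STAT2, which drives OAS transcription with IRF9, by 0.46 ± 0.07. USP18 also rose in CTCF-B KO (0.33 ± 0.12, limma adjusted p = 0.0368), a call that ended without CTCF-B KO replicate 1 or 4 or without WT replicate 2, 3 or 4 (adjusted p 0.0804 to 0.108) and after quantile normalization (0.0575). IFNLR1, a subunit of the type III interferon receptor, rose by 0.54 ± 0.09 in CTCF-A KO and fell by 0.57 ± 0.09 in CTCF-B KO, and with replicate 4 as the one CTCF-A KO library it was at 0.39 there. IFNGR1, a subunit of the interferon gamma receptor, rose in CTCF-B KO (0.34 ± 0.07).

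Of the 24 measured members of a list of other interferon-induced genes, 16 rose and 2 fell in the CTCF-A KO cells (median 0.88), and 12 rose and 1 fell in CTCF-B KO (median 0.42). Among all genes tested, 31.8% rose and 31.1% fell in CTCF-A KO cells (median 0.0049). In CTCF-B KO, 18.9% of them rose and 20.6% fell (median 0.0016). Between the knockouts, 12 of the 24 were higher and 3 lower in CTCF-A KO, beside 33.4% and 32.6% of all genes. The genes with the smallest adjusted p in CTCF-A KO were GBP1 (1.28 ± 0.08), a guanylate-binding protein, UBE2L6 (1.49 ± 0.10), the conjugating enzyme for ISG15, LGALS3BP (0.94 ± 0.07), a secreted glycoprotein, and IFITM1 (1.57 ± 0.13), a membrane protein that blocks virus entry. In CTCF-B KO they were IFIT2 (1.13 ± 0.13) and IFIT3 (0.94 ± 0.14), which bind viral RNA or its partners, IFI44 (0.80 ± 0.12) and GBP1 (0.44 ± 0.08). The rises of OAS1 and OASL were larger in value than those of these 7 genes in both knockouts, without a test of the differences. OAS3 rose in CTCF-A KO by less than UBE2L6, IFITM1 and GBP1.

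Genes around the OAS loci were examined because CTCF acts on chromosome structure. Within 1 Mb of the OAS1-OAS3-OAS2 cluster, 13 genes were measured, of which 8 were higher and 3 lower in CTCF-A KO (median 0.23), and 3 were higher and 1 lower in CTCF-B KO (median 0.14). Over all genes, 31.8% were higher and 31.1% lower in the CTCF-A KO cells, and 18.9% were higher and 20.6% lower in CTCF-B KO. The nearest measured gene start before the cluster was that of the ribosomal protein gene RPL6, 487.9 kb away, at -0.03 ± 0.04 in CTCF-A KO cells and 0.08 ± 0.04 in CTCF-B KO. In CTCF-A KO its sign and its call changed with the normalization, to -0.11 after quantile normalization (limma adjusted p = 0.00792) and 0.17 with the trend removed (0.0457), and in CTCF-B KO it passed after quantile normalization (0.18, 4.17e-04). The nearest after it was that of the RNA helicase gene DDX54, 173.8 kb away, which rose in CTCF-A KO by 0.29 ± 0.07 (0.11 with replicate 4 as the one CTCF-A KO library). In CTCF-B KO it stood at 0.14 ± 0.07 (limma adjusted p = 0.12), but passed with the trend removed (0.18, 4.80e-04) and after quantile normalization (0.16, 0.0431). The largest rises among the 13, named here after their values were seen, were those of TPCN1, a lysosomal ion channel gene (0.86 ± 0.07), and PLBD2, a lysosomal protein gene (0.81 ± 0.05), both in CTCF-A KO. The largest falls, named likewise, were those of PTPN11 (-0.75 ± 0.16, limma adjusted p = 0.00144) and NAA25 (-0.52 ± 0.17, 0.0151), also in CTCF-A KO. How these falls depend on the processing is not given here. No measured neighbour of the cluster rose as much as OAS1 or OAS3 in CTCF-A KO.

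Within 1 Mb of OASL, 31 genes were measured. In CTCF-A KO 13 were higher and 1 lower (median 0.11), and in CTCF-B KO 9 were higher and 0 lower (median 0.096), beside the same shares over all genes. P2RX4, a gene for an ATP-gated channel that starts 170.6 kb beyond the 5′ end of OASL, rose in CTCF-A KO (0.47 ± 0.07) and was at 0.17 ± 0.07 in CTCF-B KO (limma adjusted p = 0.0523, but 0.23 and 0.0396 with the trend removed). None of the 31 rose as much as OASL in either knockout, the highest being 0.47 in CTCF-A KO cells and 0.35 in CTCF-B KO.

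**Figure D5:**
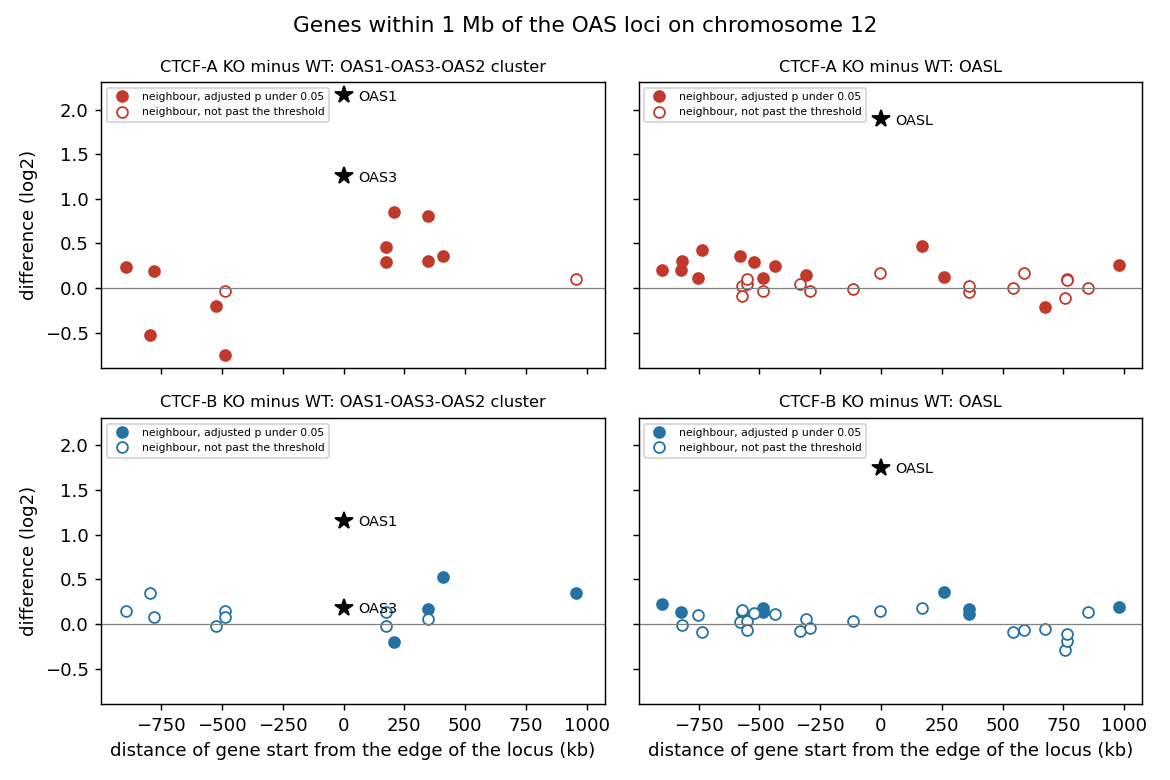
Difference from WT (log2) of each measured gene within 1 Mb of the OAS1-OAS3-OAS2 cluster (left) and of OASL (right), against the distance of its start from the edge of the locus in kb. Rows show CTCF-A KO minus WT and CTCF-B KO minus WT, filled points passed an adjusted p of 0.05, and stars mark OAS1, OAS3 and OASL. OAS1 and OASL stand above every neighbour in both rows, and OAS3 does so in CTCF-A KO.

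To find genes with a like pattern, deviations from the WT mean over the 12 libraries were compared by their root-mean-square difference, in log2 units. The 5 genes nearest to OAS1 were AKR1C3 (0.37), OASL (0.46), HMOX1 (0.54), ABLIM3 (0.56) and PARP12 (0.56), where the median gene differed by 1.47. Those nearest to OASL were AKR1C3 (0.36), ABLIM3 (0.45), OAS1 (0.46), NDRG1 (0.46) and PCDH10 (0.52), against a median of 1.51. OAS3 had closer companions, namely FMNL1 (0.12), PSMB8 (0.14), MDGA1 (0.14), BAIAP2 (0.15) and CIB1 (0.17), against a median of 0.77. OAS3 itself was number 45 in likeness to OAS1 and number 102 to OASL. Seen from OAS3, OAS1 was number 6196 (0.80) and OASL number 9097 (0.99), both further from it than the median gene. The measure counts the size of a change as well as its shape, so a gene that rises further can rank as less like OAS3. AKR1C3 has close paralogs that may share its reads. With each library's GC and length trend taken out, 2 of the 5 nearest genes were the same for OAS1, 2 for OAS3 and 4 for OASL.

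The cells' identity was checked on fixed markers. Of 11 glial markers listed, 8 had a row (GFAP, VIM, NES, SOX2, SOX9, SLC1A3, GJA1 and FABP7), while S100B, AQP4 and ALDH1L1 had none. The summed linear level of the 8 was 88300 to 102776 in CTCF-A KO cells, 77399 to 81002 in CTCF-B KO and 135241 to 157518 in WT. Of these 8 genes, 5 fell in CTCF-A KO cells, where 31.1% of all genes fell, and 7 in CTCF-B KO, where 20.6% did. GFAP fell by the most (-3.11 ± 0.07 in CTCF-A KO cells and -2.85 ± 0.07 in CTCF-B KO). How far this shift in glial markers bears on the OAS differences was not tested. Of 10 leukocyte and microglia markers, 0 had a row. Of 6 endothelial and epithelial markers KRT18 alone did, with a linear level of 369 to 451 in CTCF-A KO cells, 359 to 388 in CTCF-B KO and 463 to 505 in WT.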

How the data were processed

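RNA of 12 libraries (3 groups of 4) was measured by paired-end sequencing. Per the submitters' processing notes, reads were trimmed with Trimmomatic 0.33 and handled with featureCounts and DESeq2 on GRCh38.p7. The aligner, annotation, strand setting and gene filter are not given in the sources used here. The authors deposited 1 table of normalized values already on a log2 scale, as the values show (1.34 to 17.97). The depth of each library is unknown, so no counting interval is given. The values were used as they stood. Genes with a linear value of at least 10 in at least 4 libraries were kept (11128 of 11178), the 3 OAS genes among them in all libraries. A linear model of the 3 groups was fitted with limma 3.58.1 (R 4.3.3) and a trended empirical Bayes variance, tested two-sided with Benjamini-Hochberg adjustment over all genes kept and checked on simulated data. GC content and exon length came from GENCODE 29 (99.7% of genes). No libraries were identical, and replicates differed by a median of 0.080 to 0.29 in CTCF-A KO, 0.055 to 0.081 in CTCF-B KO and 0.052 to 0.082 in WT (absolute log2 difference). The members and lists were chosen with earlier results of these data known. Named genes were the OAS genes, the 2-5A genes, up to 4 genes per list and comparison with the smallest adjusted p, the nearest measured gene on each side of a locus and the 5 genes nearest in pattern, with exceptions stated. Some genes under this rule are not reported here. DDX58 and STING1 are named as in the table.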

Additional observations from a re-analysis of the deposited data

Results flagged for a closer look

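Of 15 groups of 4 libraries examined for OAS1, OAS3, OASL, PDE12 and ABCE1, 2 held a library far from the other 3 by Dixon's test at 95%. Chance alone flags about 1 group in 20. OAS1 was at 10.37 in CTCF-A KO replicate 1, whereas the nearest other CTCF-A KO library was at 9.67, a gap of 0.860 of the group's range. OAS3 was at 10.89 in WT replicate 3, whereas the nearest other WT library was at 10.58, a gap of 0.930 of the range. Without CTCF-A KO replicate 1 the rise of OAS1 over WT was 1.97 (log2). Without WT replicate 3 the difference of OAS3 from WT was 1.33 in CTCF-A KO cells and 0.26 in CTCF-B KO (limma adjusted p = 0.0657 for the last).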

How the results depend on the processing

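The 5 calls of a rise over WT among the OAS genes and the 2 calls between the knockouts held under each alternative run: other filters, quantile normalization, median centring, other variance models, a pseudocount of 10, the GC and length trend removed, CTCF-A KO replicate 4 alone and each library left out. OAS3 in CTCF-B KO, not called in the fit reported, was called with library quality weights (0.20, limma adjusted p = 0.0136). With each library left out in turn it lay between 0.12 and 0.26. Of 12 same-numbered pairs of libraries, 5 had a correlation of residuals over 0.1 (range -0.32 to 0.43). Pairs with unlike numbers lay between -0.51 (CTCF-A KO replicate 1 with WT replicate 3) and 0.50 (CTCF-A KO replicate 4 with WT replicate 3). Whether same-numbered libraries were handled together cannot be settled from these values. With the replicate number as a block, OAS1 rose by 2.16 in CTCF-A KO cells (limma adjusted p = 2.61e-05) and by 1.16 in CTCF-B KO (0.00257), and the block changed no call of an OAS gene. The number of genes called was 7002 in CTCF-A KO, and 4654 with replicate 4 as its one library, which is then assumed to vary like the other groups. It was 4389 in CTCF-B KO, 6601 with the 8 libraries compared fitted alone and 7101 with quality weights. The cause of these shifts was not tested.

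The OAS1 minus OAS3 change between CTCF-A KO and CTCF-B KO turned from -0.066 to 0.062 after quantile normalization and 0.096 with the trend removed, past the threshold in none of them. Among 52 values named for other genes, signs turned in CTCF-A KO for RPL6 (0.053 with median centring, 0.024 with quality weights, 0.17 with the trend removed with or without the replicate block, 0.012 without CTCF-A KO replicate 4), for PDE12 (0.096 with the trend removed with or without the block) and for DTX3L (0.047) with replicate 4 alone. RPL6 reached -0.048 with 1 library left out, -0.11 after quantile normalization (limma adjusted p = 0.00792) and -0.15 with replicate 4 alone, and its 0.17 with the trend removed was called (0.0457). Unknown depth limits what can be said of low values.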

Other observations

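IFI27, an interferon-induced gene named here after its values were seen, went opposite ways in the knockouts. Its log2 values were 10.18, 9.57, 9.27 and 9.02 in CTCF-A KO cells, 7.98, 8.09, 7.85 and 8.25 in CTCF-B KO, and 8.63, 8.55, 8.94 and 8.69 in WT. The groups did not overlap. CTCF-A KO stood wholly above WT for 25.7% of all genes and wholly above CTCF-B KO for 28.3%. The share with CTCF-B KO below WT is not given here. IFI27 rose by 0.81 ± 0.19 in CTCF-A KO (limma adjusted p = 0.00292), or by 0.32 with replicate 4 as the one CTCF-A KO library. It fell by 0.66 ± 0.19 in CTCF-B KO (limma adjusted p = 0.0155). The difference between the knockouts was 1.47 ± 0.19 (limma adjusted p = 2.34e-05).

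PARP14 and DTX3L were the 2 genes that fell in CTCF-A KO among the 24 measured on the list of other interferon-induced genes. Of all genes, 31.1% fell there. PARP14 fell by 1.01 ± 0.24 (limma adjusted p = 0.00289), from log2 values of 8.91, 9.34, 9.05 and 10.33 in CTCF-A KO against 10.33, 10.34, 10.60 and 10.41 in WT, and by 0.65 with the GC and length trend removed (0.0026). With replicate 4 as the one CTCF-A KO library it was at -0.093. DTX3L fell by 0.31 ± 0.10 (0.0147), a call that ended with the trend removed (-0.13, 0.128) and without CTCF-A KO replicate 3 (-0.25, 0.0516).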
